A study of Rattus norvegicus with 6 samples.

Results

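The miRNAs described here are both arms of miR-483 and both arms of miR-675, whose genes lie in the neighbouring imprinted genes Igf2 and H19. They were chosen by name, as the rows rno-miR-483-5p, rno-miR-483-3p, rno-miR-675-5p and rno-miR-675-3p, and make up 4 of the 753 known mature miRNAs in the count table. Small RNA was sequenced from the lumbar spinal cord of 3 rats with bone cancer pain (BCP) and 3 sham-operated rats, with 1 library per rat, on day 14 after the operation. The BCP rats had received living Walker 256 cells, a rat mammary carcinoma line grown as ascites, in the marrow cavity of the left tibia, and the sham-operated rats heat-killed cells of the same line. All rats were therefore exposed to tumor cell material and to the operation. The methods give female Sprague Dawley rats, whereas the labels give Wistar, and no age is given in either. The tissue was the lumbar enlargement on the injected side, from which the meninges had been removed, so each value is an average over all cells of that tissue.

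Imprinted genes are expressed mainly from the copy inherited from 1 parent. Igf2, which encodes insulin-like growth factor 2, is expressed from the paternal copy in most tissues and carries miR-483 in an intron. H19, a long non-coding RNA made from the maternal copy, carries miR-675 in its first exon. A differentially methylated region between both genes sets this opposite pattern. In the adult nervous system Igf2 is known mainly from the choroid plexus and the leptomeninges, and H19 is high in the embryo and falls after birth in most tissues except skeletal muscle. A miRNA precursor is a hairpin whose 5p and 3p arms are cut out as short duplex strands, and the arm that stays in the silencing complex pairs with target mRNAs mainly through its seed.

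The 4 mature sequences are shown because reads are assigned to an arm, and a target is recognized, by these letters. They were taken from RefSeq on the GRCr8 assembly, 5′ to 3′, with the seed (bases 2 to 8) in capitals:
miR-483-5p: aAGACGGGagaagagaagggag
miR-483-3p: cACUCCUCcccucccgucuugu
miR-675-5p: uGGUGCGGaaagggcccacagu
miR-675-3p: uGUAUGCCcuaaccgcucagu
The first 3 have 22 nucleotides and miR-675-3p has 21. On GRCr8 the miR-483 hairpin is at chr1:207247859-207247931 within the span of Igf2, and the miR-675 hairpin is at chr1:207161752-207161835 within the span of H19, both on the minus strand. The miR-675 hairpin also lies within the span of LOC102548505, another long non-coding RNA gene of the RefSeq list. The count table itself gives no positions and was made on another assembly, Rnor_6.0. No other gene of the RefSeq list lies wholly between H19 and Igf2, and 86.0 kb separate both hairpins. The 4 seeds all differ from each other. Of the 753 listed miRNAs 688 had a RefSeq sequence under the same name, and none of those shared a seed with any of the 4. Only miR-3544 matched one of them over bases 2 to 7, that of miR-483-3p, and it had between 0 and 6 counts per library.

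Both arms of miR-483 are unusual in base composition. miR-483-5p consisted of 95.5% purines (A and G), and none of the 688 listed miRNAs with a sequence had more, while their median was 50.0%. miR-483-3p, which faces it across the hairpin, had 13.6% purines, and 2 of the 688 had less. In the fold of lowest energy predicted for the miR-483 hairpin, 16 bases of the 5p arm paired with the 3p arm. For miR-675 the same number was 15, with 63.6% purines in miR-675-5p and 38.1% in miR-675-3p. Neither arm of miR-675 lay near the ends of the range.

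The libraries held between 13464349 and 23770677 counts of known miRNAs. Counting alone therefore gives wide intervals for these miRNAs, since 3 counts correspond to between 0.126 and 0.223 counts-per-million (CPM). The tissue was checked with a list of miRNAs known from neurons, oligodendrocytes and the posterior neural tube (miR-124, miR-9a, miR-128, miR-219a, miR-338, miR-10a, miR-10b and miR-196a). All 14 of its rows had counts, and their sum was between 151569 and 169819 CPM in every library. Averaged over the libraries, miR-9a-5p (66662 CPM) and miR-128-3p (59317 CPM) were the largest parts of this sum. The oligodendrocyte members were lower, with miR-219a-5p at 5.44 CPM, miR-338-3p at 24.8 CPM and miR-338-5p at 5616 CPM. The sum is therefore no check on each cell type.

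miR-675 was listed at 0 in all 6 libraries for both arms, in the sham-operated group as in the BCP group. For counting error alone, a count of 0 allows up to 0.126 CPM in the deepest library and 0.223 CPM in the shallowest. This was not rare, since 150 of the 753 rows (19.9%) were at 0 in every library, and of the 280 names with both arms listed 22 (7.86%) had both at 0. Known miRNAs were identified at 21 to 22 nucleotides, and of the 467 listed miRNAs with a RefSeq sequence of that length, as both arms of miR-675 have, 72 (15.4%) were at 0. Why miR-675 was at 0 was not tested.

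A 0 in this table cannot be read as a low level, however, because miRNAs that are abundant in nearly all cells are among the zeros. miR-21-5p, one of the most widely expressed miRNAs, had 0 counts in every library. In the RefSeq order along rat chromosome 10, it lies in a run of 16 listed arms from miR-144-5p to miR-142-3p, of which 15 were at 0. The exception was miR-3549, with 56 counts over the 6 libraries. miR-21 and this run were looked up after their values had been seen. For miR-675 most of the neighbouring rows had counts, which does not show whether miR-675 itself could be counted. On one side was miR-483, and on the other miR-210, with 9664 counts of the 3p arm and 280 of the 5p arm over the 6 libraries, while miR-3574, annotated opposite miR-210, was at 0. For these reasons no ratio of the Igf2-hosted to the H19-hosted miRNA was computed, and the comparison of groups is limited to miR-483.

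Both arms of miR-483 were detected in every rat, at low levels. In BCP rats 1, 2 and 3 the counts of miR-483-5p were 23, 10 and 17, against 27, 41 and 27 in sham-operated rats 1, 2 and 3. With normalization by the TMM method, which scales libraries on miRNAs that change little, these came to 0.976, 0.736 and 1.08 CPM for BCP, against 1.95, 2.70 and 1.81 CPM for sham. The highest BCP rat was therefore below the lowest sham-operated rat, although the BCP library 1 was the deepest of all. For miR-483-3p the BCP libraries gave 50, 28 and 33 counts, and the sham libraries 63, 44 and 53. After the same scaling these were 2.12, 2.06 and 2.09 CPM against 4.54, 2.89 and 3.54 CPM, and the groups again did not overlap. Sham-operated rat 2 was the highest of its group for the 5p arm and the lowest for the 3p arm.

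Averaged over all 6 libraries, miR-483-3p had 2.88 CPM and was 381st of the 753 rows, and miR-483-5p had 1.54 CPM and was 425th. The median of the 459 miRNAs that passed the filter on low counts was 51.0 CPM. Of these, 78 were below miR-483-3p and 34 below miR-483-5p.

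**Figure D1:**
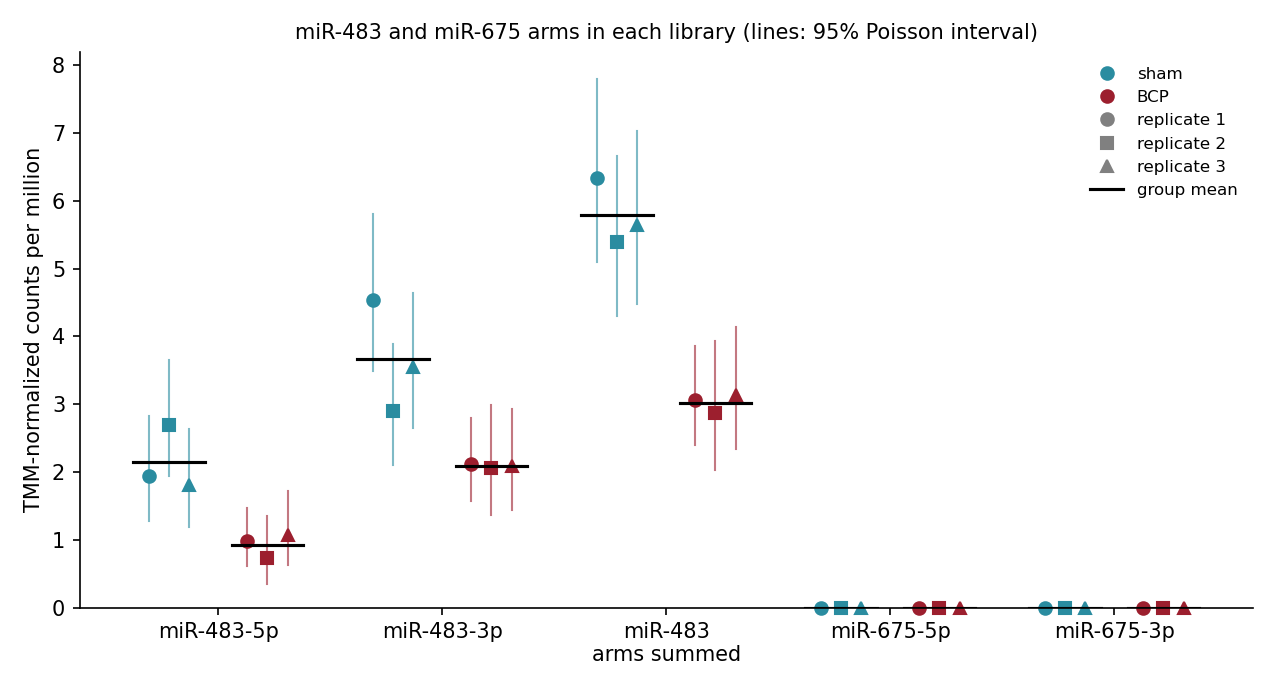
TMM-normalized CPM (vertical axis) of miR-483-5p, miR-483-3p, both arms of miR-483 summed, miR-675-5p and miR-675-3p in each of the 3 sham-operated and 3 BCP libraries; points are libraries, thin lines 95% Poisson intervals of the counts (drawn where there were counts) and black bars group means. For the sum, the BCP libraries lie between 2.86 and 3.14 and the sham-operated libraries between 5.39 and 6.34, and all points of miR-675 lie at 0.

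The comparison of BCP with sham-operated rats asked whether the spinal level of these miRNAs differed in the pain model. miR-483-5p averaged 0.929 ± 0.174 CPM (SD, n = 3) in the BCP group and 2.15 ± 0.479 CPM (SD, n = 3) in the sham-operated group, a 2.31-fold higher mean in the latter. Its log2 fold change was -1.19 (standard error 0.273), with an unadjusted p of 0.00239 and an adjusted p of 0.0523 (edgeR quasi-likelihood test, Benjamini-Hochberg over 459 miRNAs). miR-483-3p averaged 2.09 ± 0.0293 CPM (SD, n = 3) in the BCP group and 3.66 ± 0.83 CPM (SD, n = 3) in the sham-operated group. Its log2 fold change was -0.80 (standard error 0.227), with an unadjusted p of 0.00771 and an adjusted p of 0.114 in the same edgeR fit. Neither arm thus passed both thresholds, which were 0.8 for the size of the log2 fold change and 0.05 for the adjusted p. The small SD of miR-483-3p in the BCP group is below the counting error, with a chi-square of 0.00968 on 2 degrees of freedom between these 3 libraries, and should not be taken as its precision.

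Across the whole table the same test called 16 of 459 miRNAs, all higher in the BCP group, which is 3.49%, and 0 lower (0%), whereas for 11 (2.4%) the unadjusted p was below 0.05 with a lower BCP level, and for 49 (10.7%) with a higher one. The groups did not overlap in the lower direction for 24 of the 459 miRNAs (5.23%), among them both arms of miR-483, and in the higher direction for 61 (13.3%). By unadjusted p miR-483-5p was 21st and miR-483-3p 30th of the 459. For each arm, a two-sided exact permutation test over rats gave p = 0.1, below which 3 rats against 3 cannot go. Leaving out single rats moved the log2 fold change of miR-483-5p between -1.34 and -1.0 and its adjusted p between 0.0444 and 0.211, with the arm called lower only without sham-operated rat 3, where lower calls were 0.213% of those tested. In these fits the log2 fold change of miR-483-3p lay between -0.95 and -0.65 and the adjusted p between 0.0921 and 0.348. With all rats kept, the call on miR-483-5p turned to lower with total counts (adjusted p = 0.0491, 0.436% of miRNAs called lower) and with edgeR's exact test (adjusted p = 0.00747, 0.436% called lower). With edgeR's likelihood ratio test both arms were called lower (adjusted p = 0.00594 and 0.0451), as were 0.654% of the miRNAs tested. In a bulk tissue, fewer cells that make a miRNA and less of it per cell cannot be told apart.

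**Figure D2:**
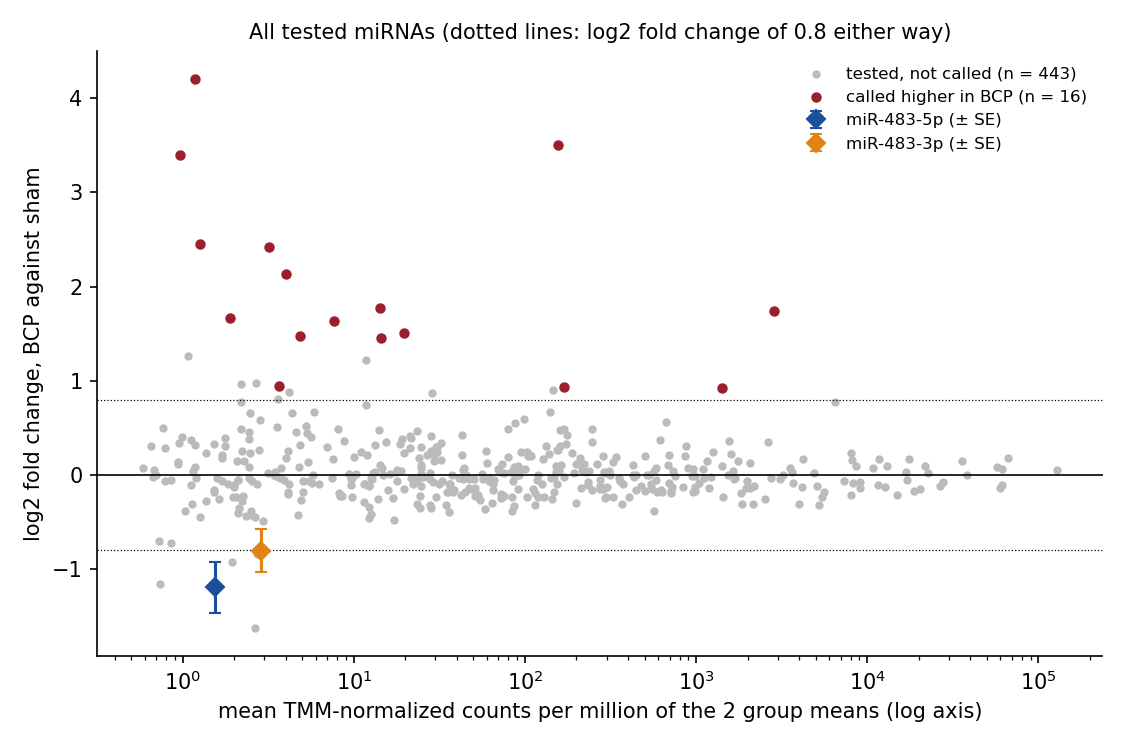
Log2 fold change of BCP against sham-operated rats (vertical axis) against the mean level in CPM (horizontal log axis) for the 459 tested miRNAs; gray points were not called, red points were called higher, and diamonds with standard errors mark miR-483-5p at -1.19 and miR-483-3p at -0.80. Both arms lie at the low end of the levels and among the lowest fold changes.

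When the counts of both arms were added, miR-483 was lower in the BCP rats than in the sham-operated rats. Summing the arms was chosen with earlier results of these data known, and the adjusted p of the sum does not cover that choice. In counts the sum came to 73, 38 and 50 for BCP rats 1, 2 and 3, against 90, 85 and 80 for the sham-operated rats. After TMM scaling of the table of summed arms these became 3.07, 2.86 and 3.14 CPM, against 6.34, 5.39 and 5.65 CPM. A gap of 2.25 CPM parted the groups, and a two-sided exact permutation test gave p = 0.1, again the lowest value possible. The spread within groups did not exceed counting error, with a chi-square on 2 degrees of freedom of 0.246 for BCP and 0.838 for sham, so the SDs may understate the error. The means were 3.02 ± 0.144 CPM (SD, n = 3) and 5.79 ± 0.49 CPM (SD, n = 3), 1.92-fold higher in the sham-operated group. The log2 fold change was -0.93 (standard error 0.154), with an adjusted p of 0.017 in the edgeR quasi-likelihood fit over the 313 summed names that passed the filter.

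Among the summed names 14 of 313 (4.47%) were called, 13 higher (4.15%) and 1 lower (0.319%), and the lower one was miR-483. The groups did not overlap in the lower direction for 29 of them (9.27%) and in the higher direction for 40 (12.8%). The unadjusted p of miR-483 was 9th of the 313, of which 17 (5.43%) had a p below 0.05 with a lower BCP level and 39 (12.5%) with a higher one. With all rats kept the sum was called lower under 8 of 9 alternative settings, in which lower calls were 0.26% (no filter), 0.333% (at least 10 counts in every library), 0.639% (edgeR's exact and likelihood ratio tests) or 0.319% (the other settings). The call was lost with the replicate number as a block. Without sham-operated rat 3 it was called lower, with an adjusted p of 0.0265, beside 0.314% lower calls. Without BCP rat 1, 2 or 3 the adjusted p was 0.055, 0.0963 and 0.0941, and without sham-operated rat 1 or 2 it was 0.0975 and 0.0577, so the call was lost in each of these 5 fits of edgeR's test. The log2 fold change stayed between -1.03 and -0.88 throughout.

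**Figure D3:**
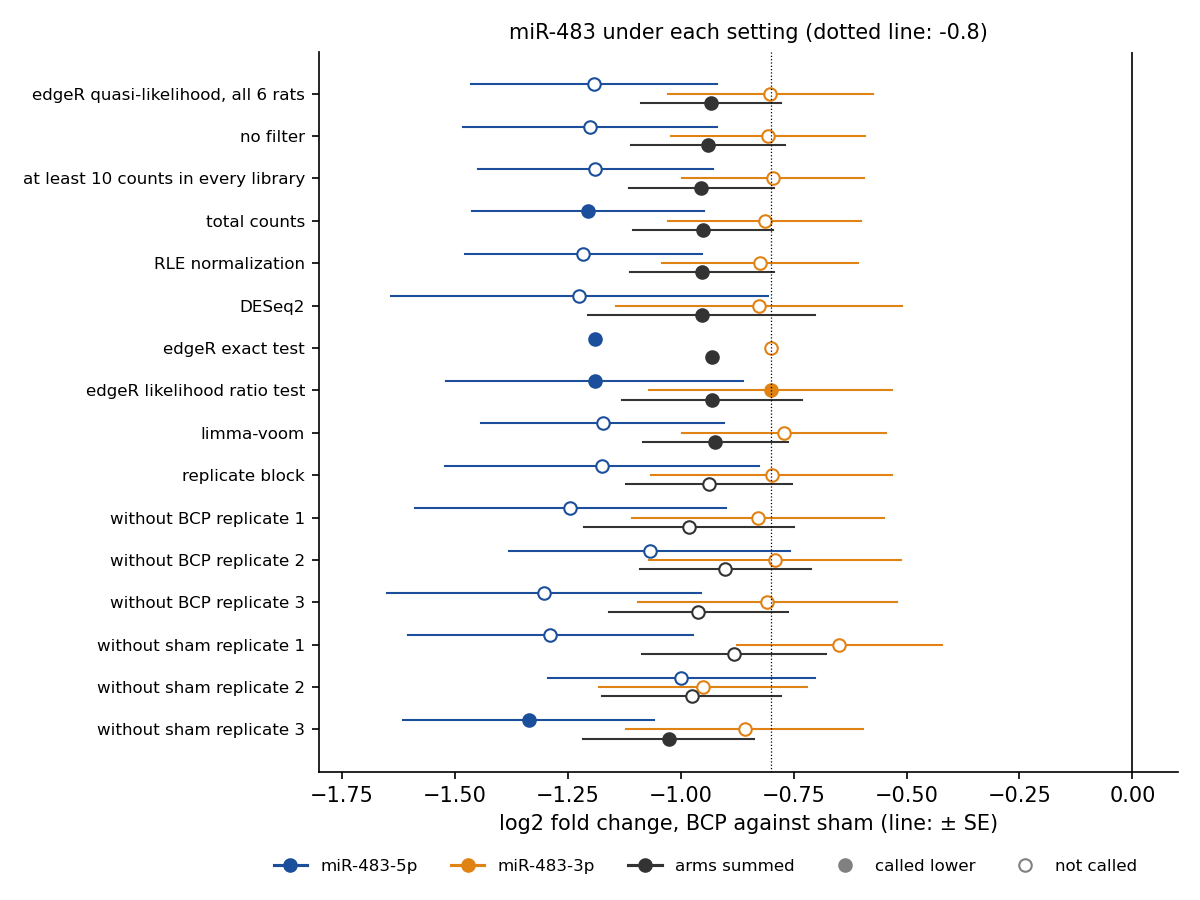
Log2 fold change of BCP against sham-operated rats (horizontal axis, lines ± standard error, none for the exact test) for miR-483-5p, miR-483-3p and the summed arms under each filter, normalization, test, replicate block and with each rat left out (rows); filled points passed both thresholds and open points did not. All values are below 0, from -1.34 to -0.65, and most filled points belong to the summed arms.

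The balance of the arms was compared to ask whether both strands of the duplex were lower to the same degree. The 5p arm made up 31.5%, 26.3% and 34.0% of the miR-483 counts in BCP rats 1, 2 and 3. It made up 30.0%, 48.2% and 33.8% in sham-operated rats 1, 2 and 3. The groups overlapped, and sham-operated rat 2 stood highest, with an exact Clopper-Pearson 95% interval from 37.3% to 59.3% for counting error alone. The means were 30.6% ± 3.92 (SD, n = 3) in the BCP group and 37.3% ± 9.63 (SD, n = 3) in the sham-operated group. The difference of -6.72 percentage points did not exceed the spread of the rats (p = 0.5, two-sided exact permutation test). Without sham-operated rat 2 it was -1.27 points. Pooled over the rats of a group, the 95% interval of the share was 24% to 38.8% for the BCP group and 31.3% to 43.5% for the sham-operated group. These intervals cover counting error only and leave out the spread between rats. The permutation test cannot go below 0.1 with 3 rats per group. A shift of several points could therefore not be resolved with these counts and rats.

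**Figure D4:**
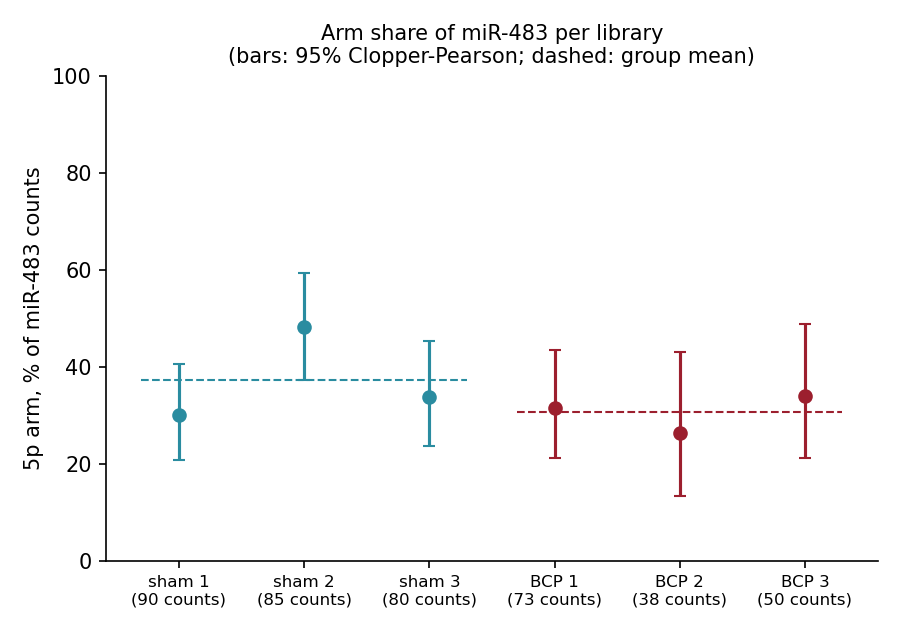
Share of the 5p arm in the miR-483 counts, in percent (vertical axis), for each library, with exact 95% Clopper-Pearson intervals as bars, group means as dashed lines and the number of miR-483 counts under each library. The intervals of the BCP libraries overlap those of all sham-operated libraries, and sham-operated rat 2 is highest at 48.2%.

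Other precursors were used as a frame for these arms. In 149 names both arms passed the filter. The less abundant arm of miR-483 held 34.9% of its CPM, against a median of 9.61% over the 149, and 18 of them (12.1%) were more even. Both arms were below a log2 fold change of -0.8 in 1 of the 149 names, miR-483, and above 0.8 in 4. The 3p arm of miR-483 was barely past this limit, at -0.80. It was short of it under the stricter filter (10 or more counts in every library), with limma-voom (-0.77), with the replicate block, without BCP rat 2 and without sham-operated rat 1 (-0.65), so miR-483 does not meet this description in those fits. Both arms were lower in the BCP group without overlap in 2 names (1.34%), miR-483 and miR-493, and higher without overlap in 12 (8.05%). miR-493 is part of the Dlk1-Dio3 imprinted domain, and its log2 fold changes were -0.32 for miR-493-5p (adjusted p = 0.319 in edgeR's fit over all miRNAs) and -0.39 for miR-493-3p (adjusted p = 0.214).

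The miRNAs whose profile over the 6 libraries was most like that of miR-483 were listed by the root mean square difference of log2 CPM centred on each miRNA. For both arms the nearest was miR-448-5p, at 0.20 from miR-483-5p and 0.144 from miR-483-3p, where the medians over 458 other miRNAs were 0.506 and 0.406. miR-448 is hosted by the serotonin receptor gene Htr2c and is known from the choroid plexus. Its counts were 49, 25 and 30 in the BCP group, against 51, 52 and 50 in the sham-operated group. This gave 1.94 ± 0.124 CPM (SD, n = 3) against 3.48 ± 0.174 CPM (SD, n = 3), with a log2 fold change of -0.83 and an adjusted p of 0.052 from the same edgeR test. The groups did not overlap. Next to miR-483-5p came miR-3594-3p, miR-135b-3p, miR-138-1-3p and miR-671, at 0.23 to 0.294. Next to miR-483-3p came miR-493-5p, miR-322-3p, miR-493-3p and miR-3552, at 0.214 to 0.25. The distance between both arms of miR-483 was 0.323, and the 3p arm was 14th in distance from the 5p arm, while the 5p arm was 61st in distance from the 3p arm. These distances are descriptions over 6 libraries that share the 2 groups.

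Since Igf2 is known from the choroid plexus and meninges, a list of miRNAs known from these tissues (miR-448, miR-1298, miR-1264, miR-1912, miR-204 and miR-211) was set beside miR-483. Of its 9 rows 6 passed the filter and 0 were called by edgeR's quasi-likelihood test, where 3.49% of all tested miRNAs were called. All 6 had log2 fold changes below 0, with a median of -0.22, where the median of all 459 was -0.0034, and the groups did not overlap for 1 of them, miR-448-5p, already named above as the nearest profile. The share of tested miRNAs without overlap in the lower direction was 5.23%. The other arm of its precursor, miR-448-3p, had a log2 fold change of -0.30 (adjusted p = 0.611 from the same test). The summed level of the list was 3818 to 4468 CPM in the BCP group and 3641 to 5016 CPM in the sham-operated group, which overlapped, and most of it was miR-204-5p, with a log2 fold change of -0.087. miR-1912-5p, miR-1912-3p and miR-211-3p were at 0 and miR-1264 was not listed. The meninges had been removed from the dissected cord according to the labels. The part of these tissues in the lower miR-483 was not tested.

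Lists for other cell types gave the following counts. Of 8 rows known from fibroblasts and vascular mural cells (miR-143, miR-145, miR-199a and miR-214), 7 passed the filter and 0 were called, with a median log2 fold change of 0.0077. Their sum was 8039 to 10361 CPM in the BCP group and 7399 to 9446 CPM in the sham-operated group, miR-143-3p being the highest, and miR-214-5p was at 0. Of 11 rows known from skeletal muscle, where H19 stays high (miR-1, miR-1b, miR-133a, miR-133b, miR-206 and miR-499), 5 passed and 0 were called, with a median of 0.016. The groups did not overlap for 1 of them, miR-1-3p, which was higher in the BCP group at a log2 fold change of 0.35, beside 13.3% of all tested miRNAs without overlap in that direction. Their sum was 231 to 363 CPM against 205 to 322 CPM, miR-499-5p was the highest, and miR-1-5p, miR-1b, miR-133b-5p and miR-206-5p were at 0. Of 8 rows known from blood cells (miR-451, miR-144, miR-223 and miR-142), 2 passed, and both arms of miR-223, a neutrophil and monocyte miRNA, were called higher, with log2 fold changes of 2.46 for miR-223-5p and 2.13 for miR-223-3p, where 3.49% of all tested miRNAs were called higher. With 5, 8 and 4 counts in sham-operated rats 1, 2 and 3, miR-223-5p passed the filter only through the BCP group. The 2 calls can therefore not be weighed against that share. The sum of the blood list was 7.88 to 10.0 CPM in the BCP group and 1.18 to 2.67 CPM in the sham-operated group. The other 6 rows, all arms of miR-451, miR-144 and miR-142, were at 0 and belong to the run on chromosome 10 described above, and miR-486 was not listed. The part of blood cells in the values of miR-483 was not tested. In the neural list 13 of 14 rows passed and 0 were called, with a median of 0.076. The groups did not overlap for 1 of them, miR-10b-5p, higher in the BCP group at a log2 fold change of 0.076, beside the same 13.3% of all tested miRNAs, and the highest member of the list was miR-9a-5p, with a log2 fold change of 0.18.

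The listed miRNAs of other imprinted loci were compared in the same way. Of the 5 rows for imprinted loci outside Dlk1-Dio3, all passed the filter and 0 were called by edgeR's quasi-likelihood test, which over all miRNAs called 3.49%. They were both arms of miR-296 and of miR-298, from the Gnas locus, and miR-184, whereas miR-335, hosted by Mest, was not listed. Their median log2 fold change was -0.11, with 4 below 0 and 1 above, the highest in level being miR-298-5p at -0.18, and the groups overlapped for all 5. Their sum was 222 to 260 CPM in the BCP group and 234 to 283 CPM in the sham-operated group. For the Dlk1-Dio3 domain a list of 9 of its miRNAs was used, which leaves out others such as miR-493, so its counts are not those of the whole domain. Of the 17 rows of this list (miR-127, miR-136, miR-431, miR-433, miR-434, miR-370, miR-379, miR-411 and miR-410), all passed and 0 were called, with a median of -0.040, 8 above 0 and 9 below. The groups did not overlap for 2 of these, miR-434-5p at -0.13 and miR-370-3p at -0.17, both lower in the BCP group, beside 5.23% of all tested miRNAs without overlap in that direction. Their sum was 79480 to 84579 CPM against 80547 to 92490 CPM, of which miR-127-3p, the highest, had a log2 fold change of -0.11. That miR-483 differed from these lists was not tested.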

How the data were processed

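The authors extracted total RNA with an RNeasy Mini Kit, made small RNA libraries with a NEBNext kit, cleaned the reads (FASTX Toolkit 0.0.13), aligned those with 18 to 40 nucleotides to Rnor_6.0 (Bowtie in the methods, Bowtie2 2.2.3 in the submitters' processing notes) and took as known miRNAs reads with 21 to 22 nucleotides that matched miRBase 22.0. The authors deposited raw read counts, without normalization, and all 6 columns were assigned to a rat. How reads matching several miRNAs were assigned is not given in the sources used here.

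Here, edgeR 4.0.16 (R 4.3.3) was run on the counts with filterByExpr (minimum count 10), TMM factors on the library totals and the quasi-likelihood test. P-values were adjusted by the Benjamini-Hochberg method over all tested miRNAs, and the thresholds for log2 fold change and adjusted p were those of the study. The study also left out unannotated miRNAs and those at very low levels, with no stated limit. Its calls and those here are therefore not directly comparable. Standard errors are the log2 fold change over the root of the F statistic. Arms were summed by name, so arms whose names carry a copy number stay apart. Alternatives used DESeq2 1.42.0 and limma 3.58.1, and folding used RNAfold 2.7.2. Intervals and floors cover counting error only, because no molecular identifiers mark PCR copies. Replicates were separate rats, and their numbers did not pair them consistently. The planned ratio of miR-483 to miR-675 and the arm share of miR-675 were not computed, because miR-675 was at 0 throughout. Besides the 4 miRNAs, those named are list members past both thresholds or highest in level, those sharing seed bases and the 5 nearest profiles of each miR-483 arm. Others, among them the miRNAs listed at 0, miR-210 and list members without overlap, were named after their values were seen. The miRNAs, the lists and the sum of arms were chosen with earlier results of these data known. Host transcripts were not analysed here.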

Additional observations from a re-analysis of the deposited data

How the results depend on the processing

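With all 6 rats, the summed arms of miR-483 stayed lower past both thresholds under 8 of 9 alternatives (log2 fold change -0.95 to -0.92) and missed them with the replicate block (log2 fold change -0.94, adjusted p = 0.0511, edgeR's quasi-likelihood test). miR-483-5p passed in 3 of 9, with total counts (-1.21, adjusted p = 0.0491), edgeR's exact test (-1.19, adjusted p = 0.00747) and its likelihood ratio test (-1.19, adjusted p = 0.00594), and miR-483-3p in 1 of 9, the likelihood ratio test (-0.80, adjusted p = 0.0451). The adjusted p of miR-483-5p over these alternatives went from 0.00594 to 0.112, that of miR-483-3p from 0.0451 to 0.165. The direction was lower throughout. Of 459 miRNAs tested, 16 were called, and 25 with the likelihood ratio test. When a rat was left out and the filter applied anew, 8 to 20 were called (8 without BCP rat 2, 9 without sham-operated rat 1, 10 without BCP rat 3). Why the calls differ was not examined, and the cause was not tested.

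Same-numbered rats are different animals. The correlations of their deviations from the group means were 0.0507, -0.444 and 0.67, so the numbers did not pair them consistently. BCP library 1 was nearest to sham-operated library 2, at 0.714. Deviations within a group are not independent, so these correlations cannot exclude a shared batch. With the replicate block 18 miRNAs were called, and the log2 fold change was -1.17 for miR-483-5p (adjusted p = 0.112) and -0.80 for miR-483-3p (adjusted p = 0.165). The blocked difference of the 5p share was -6.72 points.

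When a rat was left out, the log2 fold change ranged from -1.03 to -0.88 for the summed arms, from -1.34 to -1.0 for miR-483-5p and from -0.95 to -0.65 for miR-483-3p, and the difference of the 5p share from -10.4 to -1.27 points. As a log2 ratio of the arms that difference was -0.40. No alternative could be fitted for miR-675, which had 0 counts in every library. Depth limits all values of miR-483, since an arm had 10 to 63 counts per library.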
